A study of Mus musculus with 2 samples.

Results

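The laminin and integrin genes of the mouse salivary gland were followed across classes of nuclei and between a Csf2 null and a Csf2 heterozygous library. Csf2 encodes GM-CSF, a cytokine on which some tissue macrophages depend, and the study asked about such macrophages in developing exocrine glands. Every gene was taken whose symbol is Lama, Lamb or Lamc with a digit, or Itga or Itgb with a subunit code, without the integrin-binding proteins and the integrin-like gene that share these letters. This gave 38 of the 26033 genes in the files. They were 11 laminin chains and 27 integrin subunits (18 α and 9 β). The choice used symbols alone and no measured value.

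The null library came from salivary gland of genotype C56BL/6 Csf2-/- and the control library from genotype C56BL/6 Csf2+/-, so the control also carried a deleted allele. Both glands were taken at 20 days, and nuclei were isolated from total gland tissue without selection of a cell type. The 3' libraries were made with a 10x Chromium kit from nuclear RNA. The labels do not give how many animals entered a library. With 1 library per genotype, no difference below could be checked against replicates, and p-values are left out. All intervals are 95% intervals and cover counting error only.

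Laminins are large glycoproteins of the basement membrane, each a cross of an α, a β and a γ chain wound together. The α chain carries most of the sites that cells bind, and the β and γ chains are needed for assembly and for joining the sheet to nidogen and collagen IV. Integrins are receptors of the cell surface, each made of an α and a β subunit, which bind laminin, collagen, fibronectin, latent TGF-beta or molecules on other cells. In salivary glands, laminins line the acini, the ducts, the contractile myoepithelial cells, vessels and nerves, and both families are known for their part in branching and in keeping epithelial polarity.

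The null and the heterozygous library held 74339 and 68460 barcodes, of which 14249 and 8665 were taken as nuclei. Most other barcodes had the profile of RNA released from broken cells (free RNA). In all, 1367 barcode sequences occurred in both libraries, 29 of them among the nuclei. The median depth of a nucleus was 1953 UMIs in the null and 2805 in the heterozygous library (a UMI is a counted RNA molecule). After removal of likely doublets and of 168 null and 86 heterozygous nuclei in clusters or with depths that pointed to mixtures, 13629 and 8304 nuclei were in classes, with 28257974 and 24659094 UMIs. Csf2 itself had 0 UMIs in the null library (0 to 3.69) and 5 in the heterozygous library (1.62 to 11.7), which went with the labels but was too few to check them firmly.

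Classes were set by marker genes that included no laminin or integrin, and the 38 genes were also left out of the clustering. Of their markers, macrophage-like nuclei held 15 of 16, vascular endothelial-like 12 of 13, Pi16-led fibroblast-like 11 of 12, myoepithelial-like, Schwann-like and pericyte-like 10 of 12 each, and fibroblast-like and luminal duct-like 9 of 12 each. The acinar-like class rested on 5 of 14 markers, the Lef1-led duct-like on 4 of 12 and the intercalated duct-like on 3 of 9. The Lef1-led class also held 3 myoepithelial or basal markers. The ionocyte-like class held 7 of its 10 markers and also 6 luminal duct markers. The acinar-like class pooled clusters that were each mostly of a single library. Before mixtures were left out, these held 974 null and 89 heterozygous, 2565 and 137, 3095 and 199, and 279 and 3414 nuclei. Those with 2565 and 3095 null nuclei got no name by their own markers. Ratios between the libraries in acinar-like nuclei thus largely compare different clusters. The intercalated duct-like class pooled a cluster named by its own markers with another that got no name. Before mixtures were left out, the named cluster held 396 null and 268 heterozygous nuclei, and the unnamed cluster 169 and 79. The 10 leading genes of the acinar-like, Kcne1-led acinar-like, Lef1-led duct-like and Schwann-like classes held 0 of their own markers. A class led by Unc5c stayed unnamed. Levels are UMIs scaled to the UMI total of the class (CPM). Because 3' counts were used without gene length, only levels of the same gene are compared. Highest and next classes are those of the 15 ordered classes, each with at least 40 nuclei in both libraries, without the cycling nuclei. Free RNA could supply at most 30.8% to 47.1% of a class's UMIs in the null library and 28.7% to 47.6% in the heterozygous library, and where a level lay near what it could supply, this is said.

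The position of a member over the classes was much the same in the null and the heterozygous library. Of the 35 members with at least 50 UMIs over the 15 ordered classes, 30 (85.7%) had the same highest class in both, beside 43.9% of all 14318 genes with that count. Beyond this minimum, members and all genes were not matched for abundance. In 7 members (20.0%) the highest class led the next by at least 2-fold in both libraries, as it did in 8.94% of all genes. These 7 were Lama2 and Lamc3 (fibroblast-like), Lama1 (myoepithelial-like), Itga9 (macrophage-like), Itga11 (Pi16-led fibroblast-like), and Itgal and Itgax (lymphoid-like). The 5 members whose highest class differed between libraries were Itga3, Itga4, Itga2b, Itgae and Lamb2. Itgad, Itga7 and Itgb7, with 27, 21 and 46 UMIs over the ordered classes, were too sparse to be ordered. Myoepithelial-like nuclei had 24 of the 38 members above what free RNA could supply in both libraries, fibroblast-like nuclei 21 and acinar-like nuclei 11.

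Of the genes, Lama2 and Lamb1 encode an α and a β chain of the same laminin and were both highest in fibroblast-like nuclei, so the stretches before their transcription starts are shown. A promoter entry was at hand for 24 of the 38 members, from RefSeq on build GRCm38.p6, which is not the build of the counts. The 250 bases before the start are at chr10:27616943-27617192 (minus strand) for Lama2 and at chr12:31265043-31265292 (plus strand) for Lamb1. They are written 5′ to 3′ along the gene, and capitals mark matches, on either strand, to the GC box GGGCGG, the CCAAT box CCAAT or the TATA box TATAAA.
Lama2: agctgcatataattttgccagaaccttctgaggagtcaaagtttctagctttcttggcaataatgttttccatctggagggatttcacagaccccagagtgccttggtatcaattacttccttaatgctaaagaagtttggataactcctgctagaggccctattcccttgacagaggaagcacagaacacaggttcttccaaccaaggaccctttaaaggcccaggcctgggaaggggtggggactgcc
Lamb1: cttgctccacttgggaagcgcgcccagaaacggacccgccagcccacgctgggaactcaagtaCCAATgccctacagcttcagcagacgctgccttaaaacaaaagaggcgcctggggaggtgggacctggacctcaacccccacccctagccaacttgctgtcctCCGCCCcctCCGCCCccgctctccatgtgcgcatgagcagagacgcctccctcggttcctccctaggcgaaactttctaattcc
Lama2 had 0 matches to any of these motifs and a GC content of 47.2%, whereas Lamb1 had 2 GC boxes, 1 CCAAT box and a GC content of 62.0%. Of all 32851 promoters of this length, 32.7% held a GC box, 33.8% a CCAAT box and 12.4% a TATA box. Of the 27 promoters listed for the 24 members, 9 held a GC box, 4 a CCAAT box and 0 a TATA box. A match is only a run of letters in this window, and chromatin was not measured.

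The 5 α chains had between them 4 highest classes, and these were the same in both libraries. Lama2 encodes the α chain of the laminin of muscle and nerve, and had 3094 CPM in fibroblast-like nuclei of the null library (3033 to 3156) and 3215 in those of the heterozygous library (3151 to 3280). The next class was Schwann-like, with 619 CPM in the null and 782 in the heterozygous library. Acinar-like nuclei had 50.9 and 74.6 CPM of Lama2, at or below the 65.3 and 103 CPM that free RNA could supply there. Lama2 was therefore above free RNA in only 3 of the 15 classes, the fibroblast-like, Pi16-led fibroblast-like and Schwann-like.

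Lama4 encodes an α chain of vessels and nerve sheaths. It was highest in Schwann-like nuclei, at 395 CPM in the null (311 to 494) and 564 in the heterozygous library (472 to 669). Lama4 followed in Pi16-led fibroblast-like nuclei (269 in the null and 488 CPM in the heterozygous library), fibroblast-like nuclei (246 and 327) and vascular endothelial-like nuclei (239 and 253). In the null library the intervals of neighbours in this order overlapped, while the Schwann-like interval lay above the fibroblast-like one. Lama4 had 0 UMIs in lymphoid-like nuclei of both libraries, where the interval reaches up to 21.6 CPM in the null and 36.5 in the heterozygous library.

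Lama5 encodes the α chain typical of epithelial and vessel basement membranes, and was highest in Lef1-led duct-like nuclei, at 119 CPM in the null (91.3 to 152) and 178 in the heterozygous library (144 to 218). Luminal duct-like nuclei came next with 75.3 CPM of Lama5 in the null and 95 in the heterozygous library, ionocyte-like nuclei had 53.8 and 86.5, and mucous acinar-like nuclei 35.3 and 55.6. Fibroblast-like nuclei had 3.78 and 5.29 CPM of Lama5, close to the 3.48 and 4.54 that free RNA could supply. Lama5 passed free RNA in 8 classes, of which 7 were epithelial and the other vascular endothelial-like.

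Lama1 encodes the α chain best known from embryonic basement membranes and was sparse, with 60 UMIs over the ordered classes. In myoepithelial-like nuclei it had 29.8 CPM in the null (26 UMIs) and 15.3 in the heterozygous library (14 UMIs). Lef1-led duct-like nuclei followed, with 5 and 2 Lama1 UMIs, and 9 of the 15 classes had none in both libraries.

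Each β chain had its own order over the classes. Lamb1 encodes the widespread β chain and had 228 CPM in fibroblast-like nuclei of the null (211 to 245) and 258 in those of the heterozygous library (240 to 277). Schwann-like nuclei came next with 187 and 162 CPM of Lamb1, and in the null library the fibroblast-like and Schwann-like intervals overlapped. Lamb2, whose product takes the place of that β chain in many mature basement membranes, was above free RNA in 9 of the 15 classes, both epithelial and stromal. It had 39.8 CPM in vascular endothelial-like nuclei of the null and 40.5 in those of the heterozygous library (10 and 12 UMIs), and 33.1 and 41.0 in fibroblast-like nuclei, with overlapping intervals.

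Lamc1 encodes the γ chain of most laminins and was above free RNA in 12 of the 15 classes. In fibroblast-like nuclei it had 431 CPM in the null (409 to 455) and 700 in the heterozygous library (671 to 731). Lamc1 had 249 CPM in Schwann-like nuclei of the null and 534 in those of the heterozygous library, and 228 and 610 in the Pi16-led class. In the heterozygous library the fibroblast-like lead over the Pi16-led class was only 1.15-fold. With free RNA subtracted, the highest class of Lamc1 was fibroblast-like in the null (657 CPM) and Pi16-led in the heterozygous library (1128 CPM). Lamc3, a γ chain of restricted distribution, was almost only fibroblast-like, with 68.1 CPM in the null (59.3 to 77.8) and 66.2 in the heterozygous library (57.3 to 76). The next class of Lamc3, vascular endothelial-like, had 7.97 CPM in the null and 3.38 in the heterozygous library, and Lamc3 passed free RNA in no other class than the fibroblast-like.

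**Figure D1:**
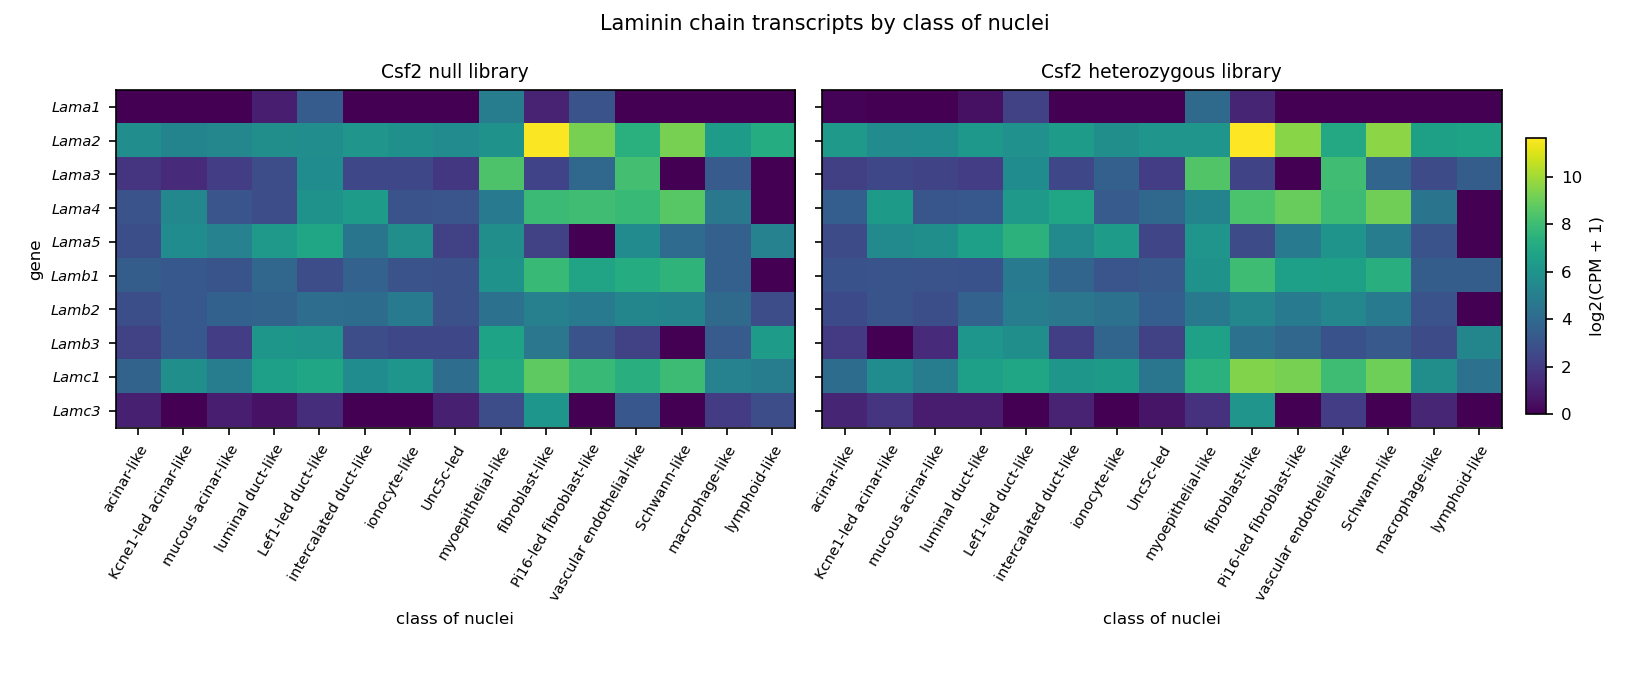
Levels of 10 of the 11 laminin chains in the 15 ordered classes, as log2(CPM + 1), with the null library in the left panel and the heterozygous library in the right. Rows are genes and columns classes. Lama2, Lamb1, Lamc1 and Lamc3 are highest in fibroblast-like nuclei, Lama3 in myoepithelial-like nuclei (336 CPM in the null and 360 in the heterozygous library), and Lama5 in Lef1-led duct-like nuclei, in both panels.

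Lama3 and Lamb3, an α and a β chain of laminins that anchor epithelium to its basement membrane, were found together in some classes and apart in others. Lama3 had 336 CPM in myoepithelial-like nuclei of the null (299 to 377) and 360 in those of the heterozygous library (322 to 401). Lamb3 was also highest there, at 107 and 101 CPM. Myoepithelial-like nuclei thus held both chains in both libraries. Lef1-led duct-like nuclei did so too, with 49.0 and 49.8 CPM of Lama3 and 64.1 and 55.5 of Lamb3.

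Luminal duct-like nuclei had Lamb3 at 70.5 CPM in the null (59.5 to 82.9) and 67.9 in the heterozygous library (57.9 to 79.2). Their Lama3 was only 5.79 CPM in the null (12 UMIs) and 3.33 in the heterozygous library (8 UMIs), against 2.38 and 3.10 that free RNA could supply. Vascular endothelial-like nuclei showed the reverse. Lama3 reached 291 CPM in the null (228 to 366) and 270 in the heterozygous library (214 to 336), with 1 and 2 UMIs of Lamb3. Lama3 has transcripts with separate starts, which counts at the 3′ end of a gene cannot tell apart. Lymphoid-like nuclei had 81.9 and 39.5 CPM of Lamb3, on 14 and 4 UMIs.

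**Figure D2:**
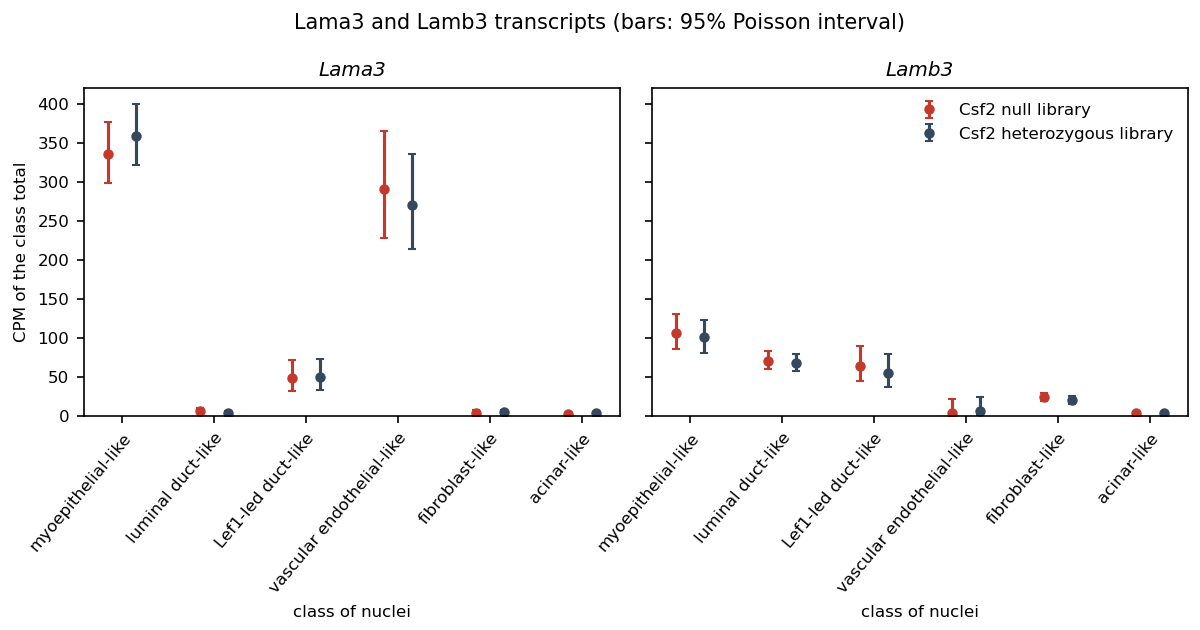
Levels (CPM of the class total) of Lama3 and Lamb3 in 6 classes. Points are the null (left of each pair) and the heterozygous library (right), and bars are 95% Poisson intervals. Luminal duct-like nuclei hold Lamb3 with little Lama3 (5.79 CPM in the null and 3.33 in the heterozygous library), and vascular endothelial-like nuclei hold Lama3 (291 and 270 CPM) with little Lamb3.

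Of the subunits of laminin-binding integrins, Itga6 and Itgb4 had an epithelial highest class in both libraries. Itga6 encodes an α subunit that pairs with the products of Itgb4 and Itgb1, and was above free RNA in 13 of the 15 classes. It was highest in myoepithelial-like nuclei, at 866 CPM in the null (805 to 930) and 898 in the heterozygous library (837 to 961), and next in vascular endothelial-like nuclei, at 486 and 527. Acinar-like nuclei had 292 and 341 CPM of Itga6, Kcne1-led acinar-like nuclei 340 and 381, and mucous acinar-like nuclei 243 and 257. In acinar-like nuclei, where it had 3936 and 3743 UMIs, Itga6 led its mean over the other classes by only 1.02-fold in the null and 1.13-fold in the heterozygous library.

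Itgb4 encodes the β subunit of the hemidesmosome, the rivet between epithelial keratin and laminin. It was highest in Lef1-led duct-like nuclei, at 249 CPM in the null (208 to 295) and 316 in the heterozygous library (270 to 368). Itgb4 was at 126 and 130 CPM in luminal duct-like nuclei, 108 and 118 in intercalated duct-like, 122 and 107 in ionocyte-like and 120 and 87.5 in myoepithelial-like nuclei. The highest class of Itgb4 was thus the Lef1-led one, which held 4 luminal duct and 3 myoepithelial or basal markers, while that of Itga6 was myoepithelial-like. Itgb4 overlaps Galk1 on the chromosome, so its counts are uncertain to that extent.

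Itga3, another subunit of laminin receptors, was highest in vascular endothelial-like nuclei of the null and in myoepithelial-like nuclei of the heterozygous library. It had 43.8 CPM in vascular endothelial-like nuclei of the null and 50.7 in those of the heterozygous library, and 42.4 and 54.7 in myoepithelial-like nuclei. Intercalated duct-like nuclei had 33 and 18.7 CPM of Itga3 and Unc5c-led nuclei 21.7 and 14. Itga7, the laminin receptor of muscle, passed free RNA only in Schwann-like nuclei among the ordered classes. Itgb1, which encodes the common β partner, was above free RNA in all 15 classes. It was highest in lymphoid-like nuclei, at 263 CPM in the null (192 to 352) and 287 in the heterozygous library (192 to 412). Vascular endothelial-like nuclei came next with 179 and 233 CPM of Itgb1, and in both libraries the intervals of these classes overlapped. Kcne1-led acinar-like nuclei had 83.4 and 88.7.

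Among the collagen-binding α subunits, Itga1 was, of the ordered classes, highest in Schwann-like nuclei, at 463 CPM in the null (372 to 569) and 534 in the heterozygous library (445 to 636). Vascular endothelial-like nuclei had 446 and 328 CPM of Itga1, lymphoid-like nuclei 175 and 277, and Kcne1-led acinar-like nuclei 164 and 173. In the null library the Schwann-like and vascular intervals of Itga1 overlapped. Itga1 overlaps Pelo, and its counts are uncertain to that extent.

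Itga2 was the member that stood out most in Schwann-like nuclei, at 177 CPM in the null (122 to 247) and 286 in the heterozygous library (222 to 364), 9.05-fold and 14-fold its mean over the other classes. Lymphoid-like nuclei had 175 and 178 CPM of Itga2, and in both libraries the intervals of these classes overlapped. Itga11, a collagen receptor subunit of mesenchymal cells, was highest in Pi16-led fibroblast-like nuclei, at 48.3 and 67.8 CPM, on only 7 and 10 UMIs. Itga10 in its highest class had 17 CPM in the null and 15.3 in the heterozygous library (9 and 8 UMIs), and acinar-like nuclei had 10.6 and 10.5 (143 and 115 UMIs).

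The αv group binds the RGD motif of matrix proteins and, with several β partners, frees TGF-beta from its latent complex. Itgav was above free RNA in all 15 classes and highest in Schwann-like nuclei, at 192 CPM in the null (135 to 265) and 376 in the heterozygous library (302 to 463). Its β partners were each in another class. Itgb6, an epithelial partner, had 110 CPM in luminal duct-like nuclei of the null (95.8 to 125) and 140 in those of the heterozygous library (126 to 156). Itgb6 was also at 41.9 and 74.4 CPM in mucous acinar-like, 32.7 and 86.5 in ionocyte-like and 15.9 and 23 in Unc5c-led nuclei.

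Itgb8, another partner that presents latent TGF-beta, was highest in intercalated duct-like nuclei, at 212 CPM in the null (185 to 243) and 229 in the heterozygous library (198 to 263). Lef1-led duct-like nuclei came next with 158 and 180 CPM of Itgb8, and in both libraries the intervals of these classes overlapped. Itgb5 was highest in macrophage-like nuclei, at 255 and 243 CPM (218 to 297 and 208 to 281), and Unc5c-led nuclei had 94.8 and 82.4. Itgb3 had 58.5 and 98.9 CPM in lymphoid-like nuclei on 10 UMIs in each library, and 43.6 and 51.4 in myoepithelial-like nuclei. In both libraries Itgb6 was thus highest in luminal duct-like and Itgb8 in intercalated duct-like nuclei. The Itgb8 lead over the Lef1-led class was not clear of counting error.

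Among the other fibronectin-type receptors, Itga5, the classical fibronectin receptor subunit, was highest in vascular endothelial-like nuclei, at 112 CPM in the null (74.1 to 161) and 125 in the heterozygous library (88.0 to 172), with 48.5 and 61.9 in fibroblast-like nuclei. Itga8, which encodes the nephronectin receptor subunit, was highest in myoepithelial-like nuclei, at 227 and 201 CPM (197 to 261 and 173 to 232), and next in fibroblast-like nuclei, at 130 and 143. Itga2b, the platelet subunit, had 7.25 and 7.61 CPM in fibroblast-like nuclei (23 UMIs in each library).

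Itga9 encodes a receptor subunit for tenascin and VCAM1 and marked macrophage-like nuclei most clearly, at 321 CPM in the null (279 to 368) and 353 in the heterozygous library (311 to 400). The next class had 51.8 CPM in the null and 74.6 in the heterozygous library. Itga4, a leukocyte receptor subunit for VCAM1 and fibronectin, was shared by 3 classes and passed free RNA only in these. It had 172 CPM in Schwann-like nuclei of the null and 244 in those of the heterozygous library, 158 and 316 in lymphoid-like nuclei, and 149 and 227 in macrophage-like nuclei. In the null library the Itga4 intervals of these 3 classes overlapped. Itga4 overlaps Cerkl, with the same uncertainty.

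The leukocyte subunits were sparse, with 27 to 106 UMIs each over the ordered classes, and all were highest in the immune classes in both libraries. Itgal had 99.4 CPM in lymphoid-like nuclei of the null and 129 in those of the heterozygous library (17 and 13 UMIs). Itgax, used to mark dendritic cells and some macrophages, had 81.9 and 109 CPM in lymphoid-like nuclei (14 and 11 UMIs), and 21.5 and 21 in macrophage-like nuclei (14 and 15 UMIs). Itgad had 11 UMIs in lymphoid-like nuclei of each library. Itgam was highest in macrophage-like nuclei, at 18.4 and 29.4 CPM (12 and 21 UMIs).

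Itgb2, the common β partner of these subunits, had 70.2 CPM in lymphoid-like nuclei of the null and 59.3 in those of the heterozygous library (12 and 6 UMIs), and 41.5 and 32.2 in macrophage-like nuclei (27 and 23 UMIs). Itgb7 was seen in lymphoid-like nuclei with 9 and 5 UMIs. Itgae, the receptor subunit for E-cadherin, was at 6.15 CPM in macrophage-like nuclei of the null and 15.4 in those of the heterozygous library. Its level in the cycling class, which was kept out of the order, was 31.3 and 21.5 CPM (18 and 10 UMIs), above the macrophage-like interval in the null library and overlapping it in the heterozygous library. Itgad overlaps Cox6a2 and Itgae overlaps Haspin.

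Itgb2l, a relative of Itgb2, was the member that stood out most in acinar-like nuclei, at 18.9 CPM in the null (16.7 to 21.4) and 20.7 in the heterozygous library (18.1 to 23.5). Kcne1-led acinar-like nuclei were higher, at 31.7 and 31.2 CPM (19 and 13 UMIs). Itgb2l lies across Igsf5 and Gm32358 in the annotation, so part of its counts may belong to them. Itga7 overlaps Mettl7b in the same way, which makes 7 of 38 members that overlap another counted gene.

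**Figure D3:**
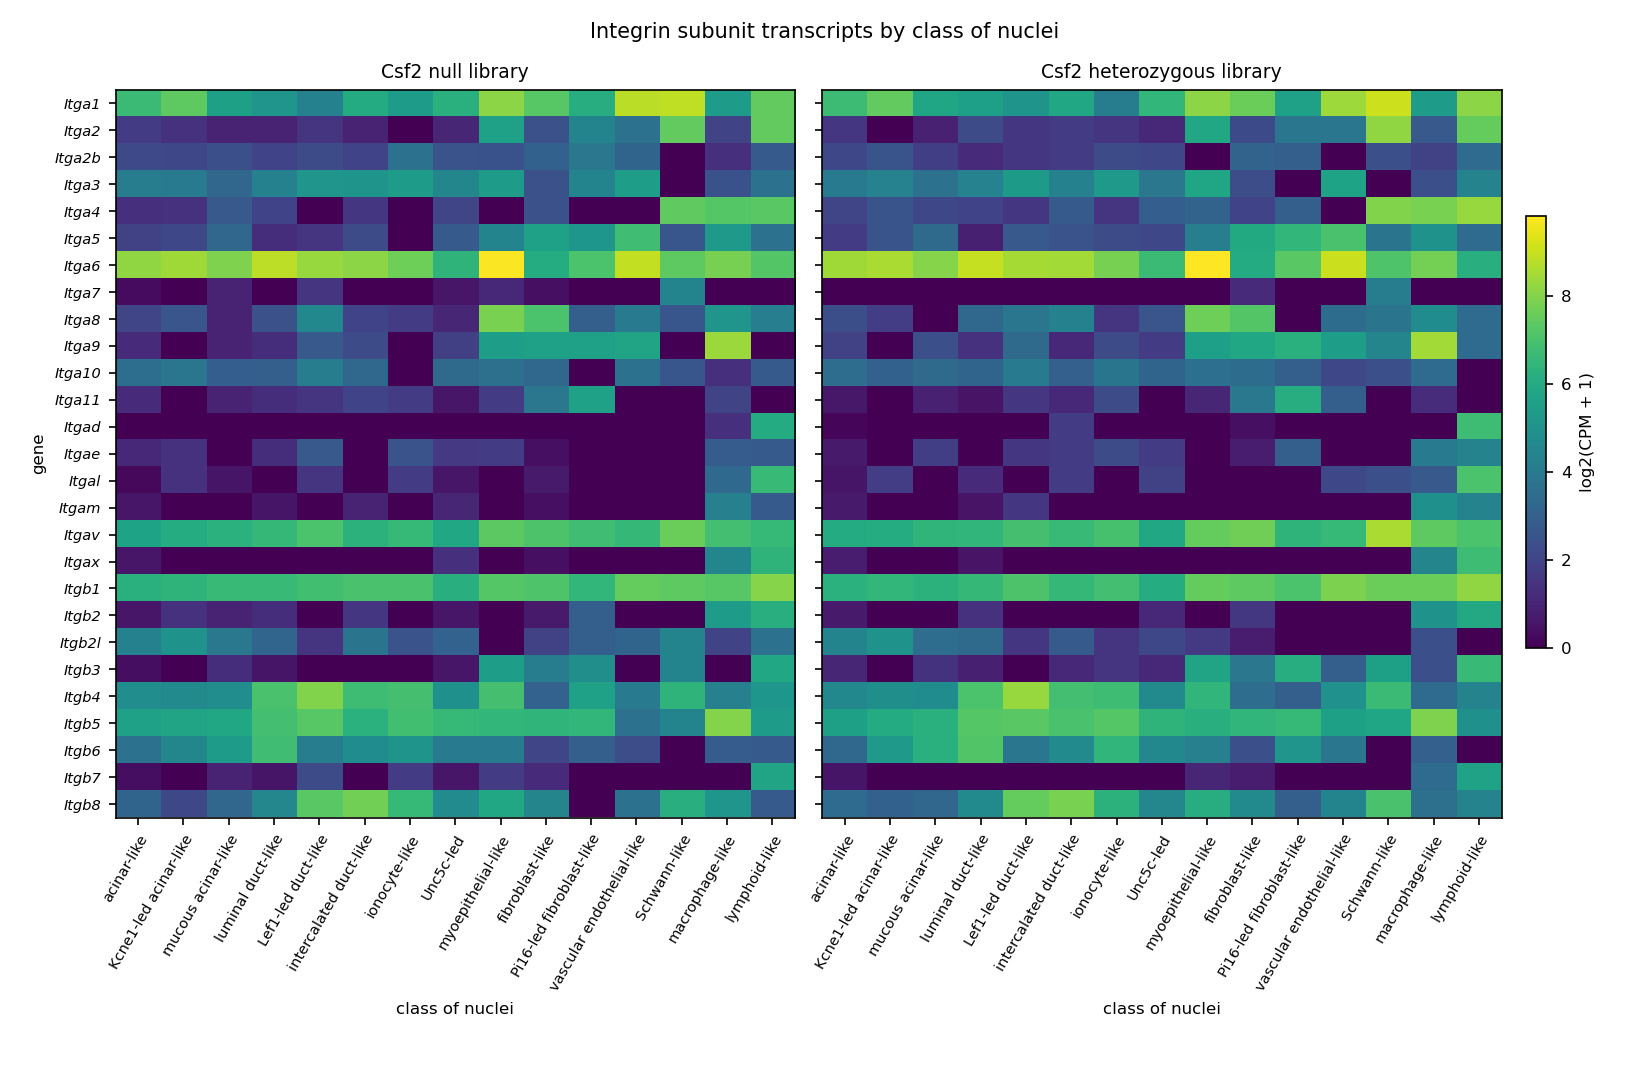
Levels of the 27 integrin subunits in the 15 ordered classes, as log2(CPM + 1), with the null library on the left and the heterozygous library on the right. Rows are genes and columns classes. Itga6, Itgb1 and Itgav are seen in nearly all columns, whereas Itga9 stands out in macrophage-like nuclei (321 CPM in the null and 353 in the heterozygous library) and Itgal, Itgad and Itgax in lymphoid-like nuclei.

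Some subunits of the same protein had a like profile and some did not. Over the 15 classes, on log2(CPM + 1), Lamb1 and Lamc1 had a Pearson correlation of 0.79 in the null and 0.91 in the heterozygous library, and Lama4 and Lamb1 one of 0.86 and 0.79. The chains Lama3 and Lamb3 reached only 0.33 and 0.39. Itgax and Itgb2 had 0.88 and 0.96, but Spearman values of 0.42 and 0.77, and Itgax had 0 UMIs in 9 classes of both libraries. Itga6 and Itgb4 had 0.43 and 0.49 (Spearman 0.23 and 0.59), and Itga6 and Itgb1 0.06 and -0.19. Itgav and Itgb6 had -0.50 and -0.61. The classes of a library share its free RNA and its depth, and these values describe 15 points each.

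Shares of nuclei with a UMI were also taken at equal depth, beside acinar-like nuclei, in which Lama2 and Lamc1 did not pass free RNA. With every nucleus thinned to 500 UMIs, 74.9% of null (72.6% to 77.1%) and 76.4% of heterozygous fibroblast-like nuclei (73.6% to 79.0%) had Lama2, against 2.54% and 3.59% of acinar-like nuclei. Unthinned, the fibroblast-like shares were 97.0% and 98.4% at median depths of 2104 and 3007 UMIs, and the acinar-like shares 9.10% and 18.6% at 1851 and 2732.5 UMIs. Lamc1 was present in 18.1% of null (16.1% to 20.2%) and 27.4% of heterozygous fibroblast-like nuclei (24.6% to 30.3%) after thinning, against 0.538% and 0.866% of acinar-like nuclei. Unthinned, the Lamc1 shares were 54.2% and 74.5% in fibroblast-like nuclei and 2.27% and 4.43% in acinar-like nuclei. Itga6 was in 36.3% and 33.9% of thinned myoepithelial-like nuclei and in 12.9% and 14.2% of acinar-like nuclei, where it did pass free RNA. Its unthinned shares were 77.0% and 84.8% in myoepithelial-like nuclei (median depths 1983.5 and 2721 UMIs), and 39.7% and 55.4% in acinar-like nuclei.

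Genes that work beside laminins and integrins were followed in 7 lists. All 17 basement membrane partners could be ordered. Of these, 15 had the same highest class in both libraries, beside 43.9% of all genes. A class was led by 2-fold by 7 of them, beside 8.94% of all genes, and this share also stands beside the lists below. Nid2, a nidogen that ties laminin to collagen IV, led in Schwann-like nuclei at 260 CPM in the null and 235 in the heterozygous library, and Col18a1 did so at 198 and 158. Collagen IV chains Col4a4 (133 and 102 CPM) and Col4a6 (265 and 312), and Frem1 (145 and 183), led in myoepithelial-like nuclei, where Lama3 and Lamb3 were also highest. Smoc2 (1373 and 1158 CPM) and Smoc1 (58.5 and 53.6), both calcium-binding matrix proteins, led in Lef1-led duct-like nuclei. Unlike the members, partner genes could take part in the clustering, so their counts are not independent of how the classes were set. Smoc2 is among the leading genes of the Lef1-led class.

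Of the 4 hemidesmosome partners, Col17a1, the transmembrane collagen of the hemidesmosome, led in myoepithelial-like nuclei (162 CPM in the null and 148 in the heterozygous library). Dst, a cytolinker that also has neural forms, led in Schwann-like nuclei (1980 and 2478). Sgcd, a sarcoglycan of the dystroglycan receptor complex, was the 1 of 7 ordered non-integrin laminin receptors that led a class, Schwann-like, at 1684 and 1970 CPM. Of 23 ordered adhesion effectors, Fermt1, an epithelial kindlin that activates integrins, led in Lef1-led duct-like nuclei (196 and 226 CPM), and Parvb in vascular endothelial-like nuclei (83.7 and 115).

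Integrin ligands that led a class were Fn1, which encodes fibronectin (186 CPM in the null and 427 in the heterozygous library), and Fbn1, fibrillin (772 and 1953), both in Pi16-led fibroblast-like nuclei, and Vwf in mucous acinar-like nuclei (395 and 487). Fbn1 is also one of the fibroblast markers. L1cam, also a Schwann marker, led in Schwann-like nuclei (239 and 205 CPM) and Jam3 in vascular endothelial-like nuclei (167 and 216). Of the latent TGF-beta partners, Ltbp2 led in ionocyte-like nuclei (196 and 237), Ltbp4 in vascular endothelial-like nuclei (167 and 176) and Nrros, which holds latent TGF-beta on macrophages, in macrophage-like nuclei (315 and 428).

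Between the genotypes, few members differed by 2-fold in any class, and those that did were lower in the null library. Of 179 pairs of a member and a class with at least 50 UMIs over both libraries (14 classes with at least 50 nuclei in each), 0 were 2-fold higher in the null library, while 1.0% of all 81849 pairs of a gene and a class were. On the lower side there were 4 member pairs (2.23%), beside 1.02% of all pairs. They were Lamc1 in Schwann-like, Itgb6 in ionocyte-like, Lama5 in intercalated duct-like and Itga4 in acinar-like nuclei. With each class's ratios centred on the median of all its genes, 1 of the 4 (Itgb6) stayed past 2-fold. With the expected free RNA subtracted, 15 pairs were 2-fold higher (8.38%) and 4 lower (2.23%), beside 5.46% and 2.84% of all pairs. In 9 of the 15 and in 1 of the 4 (Itgb4 in fibroblast-like nuclei, not among the pairs above) a library was then at 0.

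Lamc1 in Schwann-like nuclei had 48 UMIs in the null (249 CPM) and 125 in the heterozygous library (534 CPM), a log2 ratio of -1.10 (-1.61 to -0.61). In Schwann-like nuclei 2.87% of all genes tested were 2-fold lower, and their median was -0.15. Across 15 alternative settings the Lamc1 value ran over -1.22 to -0.95. Itgb6 in ionocyte-like nuclei had 14 UMIs in the null (32.7 CPM) and 47 in the heterozygous library (86.5 CPM), a log2 ratio of -1.40 (-2.38 to -0.52), where 1.34% of all genes were 2-fold lower. The Itgb6 value ran over -1.53 to -1.30 and stayed past 2-fold in all 15 settings. Of these, the settings that only lowered the UMI minimum could not change a ratio. Classing each nucleus alone by its markers was not among the 15.

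Lama5 in intercalated duct-like nuclei had 23 UMIs in the null and 39 in the heterozygous library, a log2 ratio of -1.03 (-1.84 to -0.25), beside 0.776% of all genes lower by 2-fold. Itga4 in acinar-like nuclei had 21 and 35 UMIs, also -1.03 (-1.89 to -0.21), beside 1.1% of genes. Itga4 did not pass free RNA in acinar-like nuclei, and its value ran over -1.08 to -0.24 across the settings. It was past 2-fold in 7 of 15, which include the settings that only lowered the UMI minimum.

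Of the 179 pairs, 120 (67.0%) had a log2 ratio below 0 and 59 above, beside 58.2% of all pairs of a gene and a class below 0. The counting interval lay below 0 in 39 pairs (beside 16.1% of all pairs of a gene and a class) and above 0 in 7 (beside 8.73%). The classes' medians over all genes were themselves below 0, from -0.15 in Schwann-like to -0.03 in fibroblast-like and cycling nuclei. Fibroblast-like nuclei had 16 of 20 members below 0 and a member median of -0.20, against -0.03 for all genes and 53.8% of all genes below 0.

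Lamc1, in fibroblast-like nuclei, had 1369 UMIs in the null and 2116 in the heterozygous library, that is 431 and 700 CPM, a log2 ratio of -0.70 (-0.80 to -0.60), which ran over -0.76 to -0.60 across the settings. Lamc1 was below 0 in 10 of the 13 classes where it was compared. The exceptions were Kcne1-led acinar-like (0.13), luminal duct-like (0.03) and Lef1-led duct-like nuclei (0.00), whose intervals spanned 0. With free RNA subtracted it was below 0 in 7 of these classes and above 0 in 5, among them mucous acinar-like (0.51) and Unc5c-led nuclei (0.70), and nothing was left in acinar-like nuclei. Unsubtracted, the mucous acinar-like value of -0.01 lay above the class median of -0.06. In Pi16-led fibroblast-like nuclei, too few (44 and 51) for the comparison, Lamc1 had 33 and 90 UMIs. Its chain partner Lamb1 had a log2 ratio of -0.18 in fibroblast-like nuclei and Lama2 one of -0.06, with intervals that lay above that of Lamc1.

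Itgav had a similar run of values. In fibroblast-like nuclei its log2 ratio was -0.62 (-0.80 to -0.44) and in Schwann-like nuclei -0.97 (-1.56 to -0.40), with 37 UMIs in the null and 88 in the heterozygous library. In luminal duct-like and Lef1-led duct-like nuclei it was above 0, with intervals that spanned 0. The median depth of a nucleus was lower in the null library in every class, and free RNA differed between the libraries. Their part in these ratios was not tested. In the free RNA itself, Lamc1 had a log2 ratio of -0.81 and Itgav one of -0.84. Such values were not particular to these genes. In free RNA Lama2 was at -0.73 and Itga9 at -1.03, while Lamb3 was at -0.02 and Itgb2l at 1.41.

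**Figure D4:**
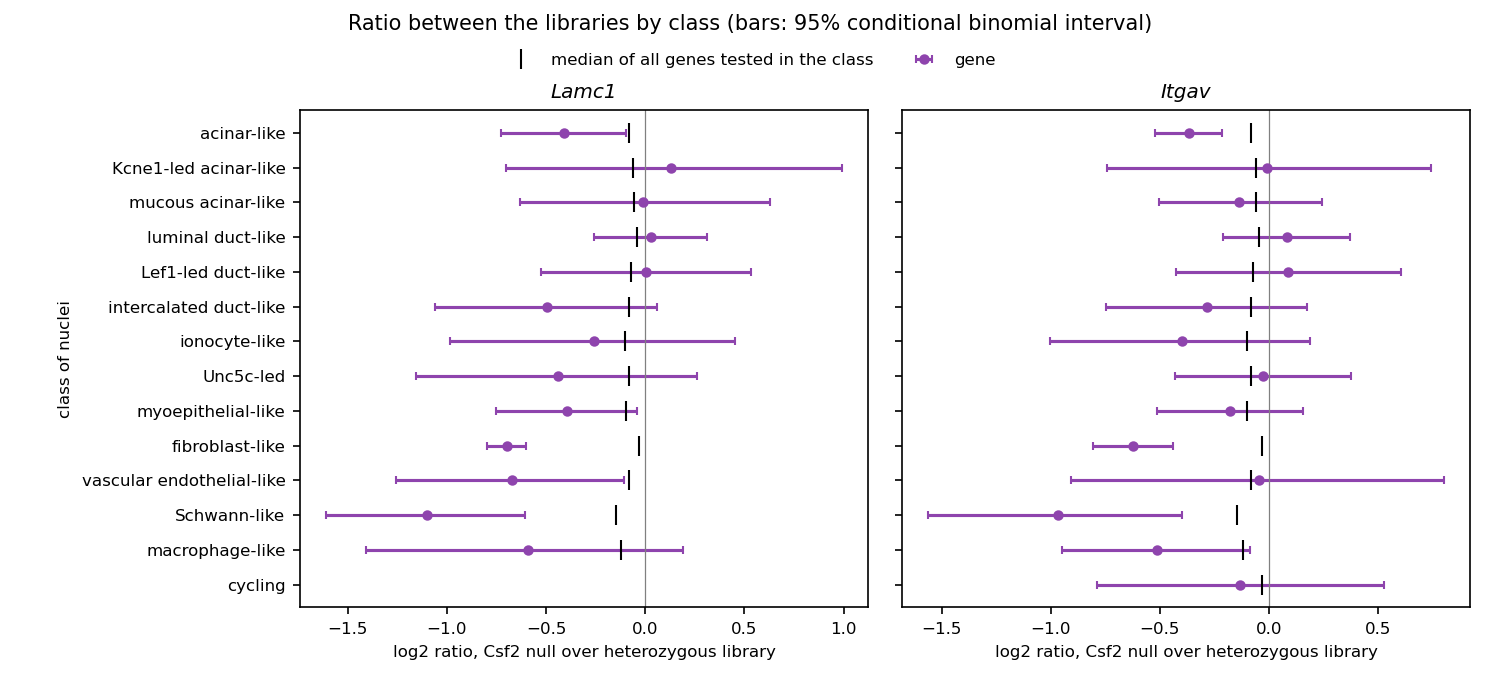
Log2 ratio of the null over the heterozygous library for Lamc1 (left) and Itgav (right) in each class compared, with 95% conditional binomial intervals as bars. Black ticks mark the median of all genes tested in the class. In fibroblast-like and Schwann-like nuclei both genes lie left of the tick with intervals that leave it out (Lamc1 -0.70 and -1.10, Itgav -0.62 and -0.97).

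Over all nuclei, 0 of the 35 members with enough UMIs were 2-fold higher and 0 were 2-fold lower in the null library, beside 0.932% and 0.994% of all 14381 genes tested. The median log2 ratio was -0.19 for the members and -0.09 for all genes, and 28 of the 35 members (80%) were below 0, beside 62.4% of all genes. Of the 11 laminin chains 10 were below 0, and 8 when ratios were centred on the median of all genes, when 23 of 35 members were below it. Lamc1 had 2304 UMIs in the null and 3311 in the heterozygous library, a log2 ratio of -0.72 (-0.80 to -0.64). Lama4 was at -0.55 (-0.66 to -0.45) and Lama5 at -0.50 (-0.66 to -0.33).

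Among the other chains over all nuclei, Lama3 was at -0.34, with an interval below 0. Lama2, with by far the most UMIs (11416 and 11561), was at -0.21, and Lamb1 at -0.17. Lamb2 (-0.18), Lamb3 (-0.06) and Lamc3 (-0.03) had intervals that spanned 0, as did Lama1, the 1 chain above 0 (0.59, on 38 and 22 UMIs). The integrin furthest from 0 among those tested was Itga4, at -0.80 (-1.06 to -0.55; 220 and 335 UMIs), followed by Itgam at -0.60 on 25 and 33 UMIs and Itga9 at -0.47. A sum over all nuclei also moves with the shares of the classes, and fewer nuclei of a class and less RNA per nucleus cannot be told apart in it. Fibroblast-like nuclei were 10.4% of null and 11.7% of heterozygous nuclei in classes, and macrophage-like nuclei 2.63% and 3.55%.

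**Figure D5:**
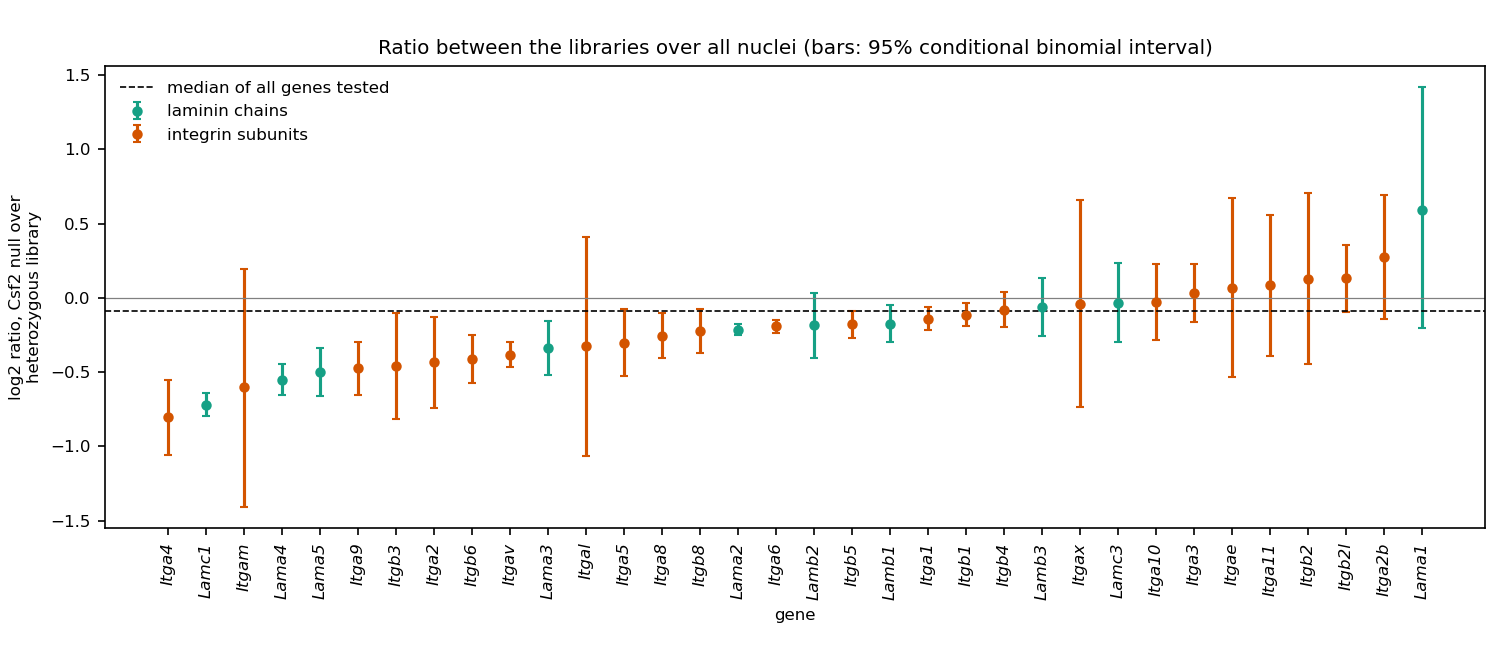
Log2 ratio of the null over the heterozygous library for 34 members over all nuclei, with 95% conditional binomial intervals as bars. The median of all genes is at -0.09, and 27 of the 34 members drawn, each with at least 50 UMIs, lie below 0, Itga4 (-0.80) and Lamc1 (-0.72) furthest.

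In the partner lists, 1 of 81 pairs of basement membrane partners was 2-fold lower and 0 higher, with a median log2 ratio of -0.10. The lowest was Col4a1, a collagen IV chain, in Schwann-like nuclei (31 UMIs in the null and 97 in the heterozygous library, log2 ratio -1.36, -2.0 to -0.77), the class in which Lamc1 was also lower. The highest was Ntn4, netrin-4, in Unc5c-led nuclei (0.89). Non-integrin laminin receptors had 0 of 56 pairs past 2-fold and a median of -0.21, between Dmd, dystrophin, in vascular endothelial-like (-0.93) and Dag1, dystroglycan, in Lef1-led duct-like nuclei (0.64). Hemidesmosome partners had 0 of 27 and a median of 0.03, between Plec in Kcne1-led acinar-like (-0.74) and Dst in intercalated duct-like nuclei (0.86).

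Of 197 effector pairs, 1 was higher and 1 lower, with a median of -0.08. Tln1, talin, had 46 UMIs in ionocyte-like nuclei of the null and 16 in those of the heterozygous library (1.87, 1.02 to 2.79), and Pxn, paxillin, had 116 and 251 in fibroblast-like nuclei (-1.18, -1.51 to -0.86). Matrix ligands other than laminin had 1 of 23 pairs higher and 1 lower, with a median of -0.51. Tnc, tenascin-C, had 111 and 44 UMIs in myoepithelial-like nuclei (1.40, 0.89 to 1.94), and Thbs1, thrombospondin, 46 and 104 in fibroblast-like nuclei (-1.25, -1.78 to -0.73). Cell surface ligands had 0 higher and 2 lower of 30 pairs, with a median of -0.11. Adam15 in intercalated duct-like nuclei (-1.04) was the lowest and Jam2 in fibroblast-like nuclei (0.59) the highest. Latent TGF-beta partners had 0 higher and 1 lower of 42, with a median of -0.15, from Ltbp1 in luminal duct-like nuclei (-1.10) to Ltbp4 in intercalated duct-like nuclei (0.86). These counts stand beside the same 1.0% higher and 1.02% lower of all pairs.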

How the data were processed

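The files the authors deposited hold UMI counts that were not normalized. Per the file headers they were made with Cell Ranger 7.0.0, and the submitters' processing notes name the build GRCm39. The gene annotation and the handling of intronic reads and strand are not given in the sources used here. The labels name a v2 3' kit. Members, lists and classes were chosen with earlier results of these data known.

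Barcodes were required to hold 500 UMIs and 300 genes or more, with less than 5% of UMIs from mitochondrial genes (55517 null and 67940 heterozygous). Both libraries were clustered together with Scanpy 1.11.5 (2000 variable genes, 30 components, 20 neighbours, Leiden with igraph 0.11.9, resolution 1.0), without the 38 members. In 5 of the 18 clusters the 8 leading secretory genes reached 0.75 or more of the UMI share they had in barcodes under 1000 UMIs. These were taken as free RNA, 41268 null barcodes (74.3%) and 59275 heterozygous barcodes (87.2%). The nuclei were clustered again (resolution 1.5, 24 clusters).

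Scrublet marked 4 null (0.028%) and 275 heterozygous nuclei (3.17%) and was taken as not having worked in the null library, so the 3.17% with the highest scores were removed from each (452 and 275). Nuclei outside the main first cluster of their second cluster, and barcodes over 20000 UMIs, were left out. A class name needed 3 or more markers at least 2-fold over the mean CPM of the other clusters or classes, each of which weighed the same. Each marker had to be backed by 10 UMIs or more. No other type could have as many such markers, or more of its markers among the 10 leading genes. Classes were ordered with at least 40 nuclei and compared with at least 50 nuclei in each library, for genes with at least 50 UMIs over both libraries.

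UMIs were summed per class and library and scaled to CPM of the class total. Intervals were exact Poisson for CPM, exact conditional binomial for log2 ratios of null over heterozygous, and exact binomial (Clopper-Pearson) for shares of nuclei. PCR copies are collapsed by UMI, and the intervals cover counting error only. A library at 0 was set to a floor of 3 counts in ratios. With 1 library per genotype there was no test. Ratios and their intervals were tested on simulated counts of fibroblast-like, Schwann-like and luminal duct-like nuclei, and the ordering of classes on planted counts. Barcode filters, free RNA, doublets, clustering and class names were not tested in this way.

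Named were the 3 members with the highest ratio of a class's CPM to the mean of the other classes (at least 50 UMIs), all laminin chains, pairs past 2-fold with an interval off 0, and partner genes that led a class or stood at either end of their list by log2 ratio. Other members and pairs were added after their values were seen. The values of 1 member are not reported here, and it is not drawn in the plots. Alternatives were other barcode filters, clusterings, doublet handling, class definitions, minimums, scalings and the subtraction of free RNA. Overlaps between genes and promoters were taken from RefSeq on GRCm38.p6, in which all 38 members were found. Promoter matches and plots used Matplotlib 3.10.9, pandas 2.3.3, scikit-learn 1.9.0, SciPy 1.17.1 and NumPy 2.4.6 under Python 3.11.15.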

Additional observations from a re-analysis of the deposited data

Results flagged for a closer look

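For 6 members the counting interval of the log2 ratio of null over heterozygous lay above 0 in a class and below 0 in another. Each class is a single sum per library, the difference between classes was not tested, and the classes named are those furthest apart among the ones whose intervals left out 0.

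Itga1 was at 0.45 in vascular endothelial-like nuclei (0.04 to 0.85) and -0.36 in fibroblast-like nuclei (-0.54 to -0.18), a difference of 0.80. Itgb1 was at 0.47 in intercalated duct-like nuclei (0.05 to 0.89) and -0.29 in fibroblast-like nuclei (-0.47 to -0.10), a difference of 0.76. Itgb4 was at 0.46 in myoepithelial-like nuclei (0.03 to 0.90) and -0.34 in Lef1-led duct-like nuclei, where the interval only just left out 0, a difference of 0.80.

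The widest gap was that of Itgb6, at 0.43 in acinar-like nuclei (0.05 to 0.81) and -1.40 in ionocyte-like nuclei (-2.38 to -0.52), a difference of 1.83. The acinar-like Itgb6 level of the heterozygous library lay near what free RNA could supply. Subtraction left 97.9 of its 160 UMIs there in the null and 18.6 of 97 in the heterozygous library, a log2 ratio of 2.16. Lama2 was at 0.69 in cycling nuclei (0.10 to 1.31) and -0.55 in acinar-like nuclei (-0.70 to -0.40), a difference of 1.24. The acinar-like Lama2 level lay at or below what free RNA could supply. With free RNA subtracted, cycling nuclei kept 46.2 of 72 Lama2 UMIs in the null and 0 of 36 in the heterozygous library. Lamb1 was at 0.55 in acinar-like nuclei (0.13 to 0.98) and -0.18 in fibroblast-like nuclei (-0.33 to -0.03), a difference of 0.73. Lamb1 did not pass free RNA in acinar-like nuclei. Subtraction left 15.8 of its 133 UMIs there in the null and 0 of 74 in the heterozygous library. With 179 member and class pairs, some intervals leave out 0 through counting error alone.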

How the results depend on the processing

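No paired analysis was possible because each genotype had 1 library. Of 72 recomputed counts and medians that answer a comparison, 60 stayed within the limit set for no change. The number of members with the same highest class in both libraries ran over 27 to 33 (30 as reported). The number that led a class by 2-fold ran over 6 to 10, and was 17 (50%, beside 14.1% of all genes) when each nucleus was classed alone by its markers, a setting that left 4 classes to order. The 4 pairs that were 2-fold lower (2.23%, beside 1.02% of all pairs) became 1 with nuclei classed alone (1.59% beside 1.44%), 1 with CPM computed without the 100 most abundant genes of the free RNA (0.559% beside 0.679%), 1 with ratios centred on the class median (0.559% beside 0.748%), 7 with a minimum of 20 UMIs (2.82% beside 2.66%), 70 with no minimum (15% beside 12%), 16 at a threshold of 1.5-fold (8.94% beside 6.71%) and 7 with mixed nuclei and the largest barcodes kept (3.61% beside 1.23%), the last setting chosen after seeing the data. The count of 0 pairs that were 2-fold higher became 15 with free RNA subtracted (8.38%, beside 5.46% of all pairs), 5 with a minimum of 20 UMIs (2.02% beside 2.6%), 45 with no minimum (9.64% beside 11%) and 4 at 1.5-fold (2.23% beside 5.95%), and stayed 0 otherwise. Fewer UMIs per pair, a lower threshold or fewer classes enter these counts by construction. For the others the cause was not tested.

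Over all nuclei the member median of -0.19 ran over -0.20 to -0.07. Of the single values, 194 stayed within their counting interval, 20 moved out of it, and 1 whose interval left out 0 changed sign. This was Itga1 over all nuclei, at -0.14 as counted and 0.037 with free RNA subtracted. Sign changes of members whose interval over all nuclei spanned 0 were not counted as such. The members below 0 over all nuclei went from 28 to 23 with centred ratios and to 24 with free RNA subtracted. Depth limits the pairs with few UMIs most, and 3 of the 38 members had under 50 UMIs over the ordered classes. Leaving out a replicate was not possible with 1 library per genotype.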

Other observations

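A small class led by Prox1, Mmrn1, Reln and Flt4, genes of lymphatic endothelium, held 20 null and 11 heterozygous nuclei and was left unnamed, since it had as many vascular as lymphatic markers. Its Lama4 was at 1128 CPM in the null (835 to 1492) and 1157 in the heterozygous library (859 to 1525), on 49 and 50 UMIs, above the level of Lama4 in every ordered class. Its Itga9, a gene known for its part in lymphatic valves, was at 392 and 486 CPM, on 17 and 21 UMIs, with intervals that overlapped those of macrophage-like nuclei.

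Pericyte-like nuclei, 24 in the null and 15 in the heterozygous library, had Itga1 at 494 CPM in the null (310 to 748) and 715 in the heterozygous library (492 to 1004), above the Schwann-like level of Itga1 in both libraries with overlapping intervals. Itga7, the laminin receptor subunit of muscle, was at 247 CPM there in the null (123 to 442) and 86.7 in the heterozygous library (23.6 to 222), on 11 and 4 UMIs, which was its highest level over the classes of nuclei in both libraries.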
